A study of Schizosaccharomyces pombe with 6 samples.

Results

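The genes described here are *arg1*, *arg3*, *arg4*, *arg5*, *arg7*, *arg11* and *arg12* of fission yeast (*Schizosaccharomyces pombe*), which encode enzymes of arginine synthesis. They were chosen by their identifiers, although earlier results of these data were known, and make up 7 of the 6345 genes in the deposited table. RNA was sequenced from 3 cultures of wild-type cells (strain EHB7) and 3 of *mkt1Δ* cells (strain EHB2196, *mkt1* replaced by the NatR marker). Cells of both strains are h+, carry the alleles ade6-210, leu1-32 and ura4-D18 and the marker insertion otr1R(Sph1):ade6+, and were grown exponentially in YES, a rich medium made with yeast extract, at 32°C. The study asked whether gene expression changes without Mkt1, a factor that acts on RNA after transcription. The deposited table gives for each gene 1 mean log2 CPM (reads of the gene scaled to library size, log2 scale) over all 6 libraries, so the values below are the authors' means with both strains pooled. The means are not split by library or strain. The spread between replicates and the depth of each library are therefore not reported, and no test was run. The authors' own comparison of the strains was not used, so the difference between the strains is not reported either.

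Arginine is made from glutamate through a series of acetylated intermediates that end in ornithine. Ornithine is joined to carbamoyl phosphate to give citrulline, and citrulline is turned into arginine by way of argininosuccinate. The pathway is costly in nitrogen, and in fungi its genes are generally controlled by the supply of amino acids. Neither genotype carries a mutation in an arg gene.

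The table's own descriptions name the enzyme that each identifier stands for, and they fit the 7 gene names in RefSeq. Arg11 (SPAC4G9.09c) is described as N-acetyl-gamma-glutamyl-phosphate reductase and acetylglutamate kinase, which are consecutive early steps, and Arg1 (SPCC777.09c) as the acetylornithine aminotransferase that follows. Arg5 (SPBC56F2.09c) and Arg4 (SPBC215.08c) are described as arginine-specific carbamoyl-phosphate synthase. Arg3 (SPAC4G9.10) is ornithine carbamoyltransferase, Arg12 (SPBC428.05c) argininosuccinate synthase and Arg7 (SPBC1773.14) argininosuccinate lyase, the last enzyme of the route.

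All 7 genes were expressed, but at very unequal levels. Since longer mRNAs give more reads, levels were compared after division by the annotated exon length, as mean CPM per kb. On this scale *arg1* and *arg12* were highest, *arg11*, *arg4*, *arg5* and *arg3* followed, and *arg7* was lowest, with 13.2 times between the first and the last. The median over the 7 genes was 125.3 CPM per kb, against a median of 40.2 CPM per kb over all 5046 protein-coding genes with an annotated coding length. Their summed CPM was 3011, or 0.301% of the CPM of all genes in the table.

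Of the acetylated branch, *arg1* and *arg11* were among the higher members. *arg1* had a mean log2 CPM of 9.68 and a mean level of 499 CPM per kb, and 94.3% of the other protein-coding genes lay below it. *arg11* had a mean log2 CPM of 9.17. Its mRNA is long, with 2817 bases of exon, and its level was 204 CPM per kb, above 87.2% of the other protein-coding genes.

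The genes that supply and use carbamoyl phosphate had levels close to one another and filled the places next above *arg7*, the lowest. *arg4*, for the large subunit, had a mean log2 CPM of 8.93 and a level of 125.3 CPM per kb. *arg5*, for the small subunit of the same enzyme, had a mean log2 CPM of 7.59 and a level of 95.4 CPM per kb. The gap of 2.53 times between the subunits in CPM thus came down to 1.31 times per kb, because the annotated exons of *arg4* sum to 3893 bases and those of *arg5* to 2023. *arg3*, whose product joins carbamoyl phosphate to ornithine, had a mean log2 CPM of 7.16 and a level of 89.9 CPM per kb. With coding length in place of exon length the values of *arg4*, *arg5* and *arg3* were 140.0, 155 and 146 CPM per kb, which put *arg4* last of these instead of first. *arg5* stood at 1.06 times *arg3* by either length, a gap whose error is unknown.

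The last enzymes of the route had the most unequal levels. *arg12* had a mean log2 CPM of 9.52 and a level of 464 CPM per kb, above 94.1% of the other protein-coding genes. *arg7* had a mean log2 CPM of 5.83 and a level of 37.9 CPM per kb, with 47.8% of the other protein-coding genes below it. The mean level of *arg12*, whose product makes argininosuccinate, was thus 12.3 times that of *arg7*, whose product splits it.

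**Figure D1:**
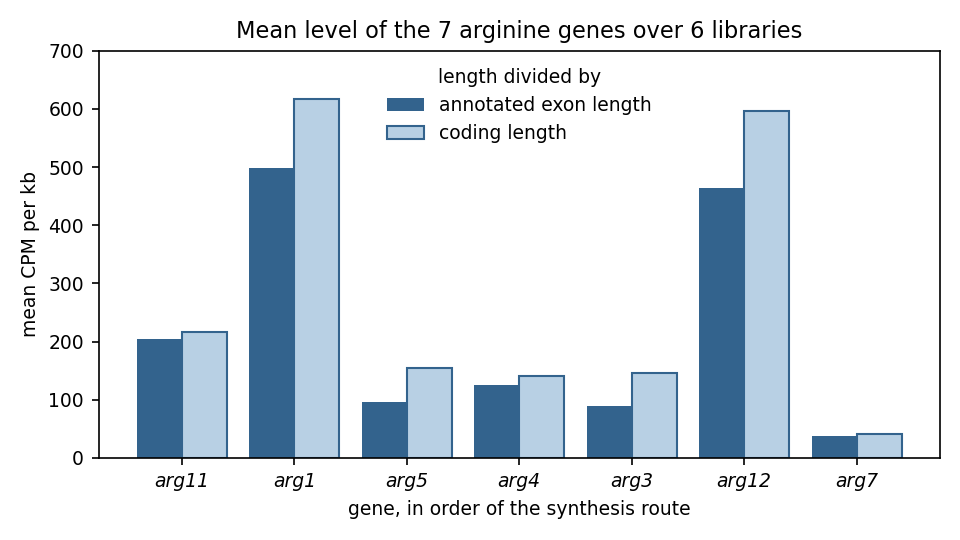
Mean CPM per kb (authors' mean over 6 libraries of both strains, no error available) of the 7 arginine genes, set in the order in which their enzymes act, divided by annotated exon length (dark bars) or by coding length (light bars). *arg1* and *arg12* stand at 499 and 464 CPM per kb of exon and *arg7* at 37.9, and by either length *arg7* is lowest.

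Against the whole genome, the genes other than *arg7* lay in the upper part of the distribution. Of the 7, 6 were above the protein-coding median, and 5 were above the 75th percentile of 92.1 CPM per kb. *arg3* lay just under that percentile. With coding length 4 were above the 75th percentile, *arg4* falling under it. None of the 7 reached the 95th percentile of 609 CPM per kb. The protein-coding genes outside the pathway whose level was nearest to the members' median were *ret2* (a coatomer subunit) at 125.0 CPM per kb, *rpb4* (a subunit of RNA polymerase II) at 125.8 and SPBC18E5.01 (described as of the cycloisomerase 2 family) at 124.8.

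**Figure D2:**
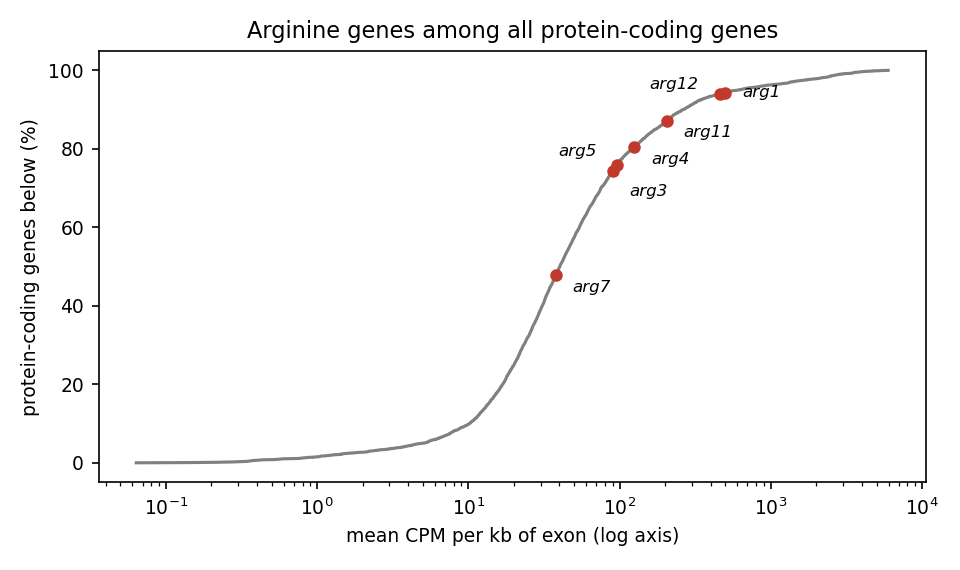
Share of the protein-coding genes below each level (y axis, percent) against the authors' mean CPM per kb of exon (x axis, log scale). The grey line is all 5046 protein-coding genes and the red points are the arginine genes, of which *arg7* lies at 47.8% and the others between 74.4% and 94.3%.

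The table also holds a second gene described as a predicted argininosuccinate lyase, SPBC1539.03c, which RefSeq names *arg41*. It had a mean log2 CPM of 7.69 and a level of 138.8 CPM per kb, 3.67 times that of *arg7*. Of the summed level of these lyase genes *arg7* made up 21.4%, and the level of *arg12* was 2.63 times the sum. This gene was singled out after its value was seen, and whether its product acts in arginine synthesis was not tested. How the counting treated reads that could map to either lyase gene is not given in the sources used here.

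The other enzymes of the route lay below the members' median of 125.3 CPM per kb, and among the members only *arg7* was lower. *arg6* (SPBC725.14), which codes for acetylglutamate synthase, had 84.4 CPM per kb. SPBC1271.14 (*aga1* in RefSeq), described as glutamate N-acetyltransferase, had 79.8 CPM per kb. In fungi this enzyme moves the acetyl group from acetylornithine back to glutamate, so that the acetylated branch runs as a cycle. Hence the genes of the branch ran from 79.8 CPM per kb for *aga1* to 499 for *arg1*.

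Genes of arginine breakdown had levels that reached those of synthesis in this medium. *car2* (SPBC21C3.08c), for the ornithine transaminase that takes ornithine towards glutamate and proline, had a mean log2 CPM of 10.01 and 575 CPM per kb, 1.15 times the level of *arg1*. Of the genes for arginase, which splits arginine into ornithine and urea, *aru1* (SPAC3H1.07) had 351 CPM per kb and *car1* (SPBP26C9.02c) had 48.1. The ratio between the arginase genes was 7.29.

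Genes for enzymes that share a precursor with the pathway had levels within the range of the members, from 46.8 to 156 CPM per kb. They lay above 55.2% to 83.8% of the protein-coding genes. *ura1* (SPAC22G7.06c), which makes carbamoyl phosphate for pyrimidines, had 51.0 CPM per kb, and *arg4* had 2.46 times as much. *spe1*, for ornithine decarboxylase at the start of polyamine synthesis, had 156 CPM per kb, and *spa1*, for the antizyme that restrains that enzyme, had 57.1. *sib2*, for the ornithine monooxygenase of siderophore synthesis, had 125.9 CPM per kb. SPAP11E10.01, of the ornithine cyclodeaminase family, had 46.8 CPM per kb.

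The transporter genes lay below every member but *arg7*, and *cat1* lay slightly above *arg7*. They lay above 11.0% to 51.1% of the protein-coding genes. *ort1*, for the predicted carrier of ornithine across the mitochondrial membrane, had 10.9 CPM per kb, and *cat1*, for a cationic amino acid transporter, had 41.5. SPBC18H10.16, described in the table as the arginine transporter Can1 but named *vhc1* in RefSeq, had 15.5 CPM per kb. Its identity is uncertain for that reason.

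Among genes whose products use arginine, *mrs1*, for the arginine-tRNA ligase, had 225 CPM per kb. The arginine methyltransferase genes *rmt1*, *rmt3* and *skb1* had 177, 75.4 and 74.7, and *ate1*, for the arginine-tRNA protein transferase, had 30.2. Of regulators that act on amino acid synthesis or nitrogen supply, the transcription factor gene *fil1* had 79.1 CPM per kb, *gaf1* had 31.8 and *gcn2*, for the kinase that senses uncharged tRNA, had 16.1. The deleted gene *mkt1* had a mean of 40.0 CPM per kb over the pooled libraries, a value that does not check the deletion.

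**Figure D3:**
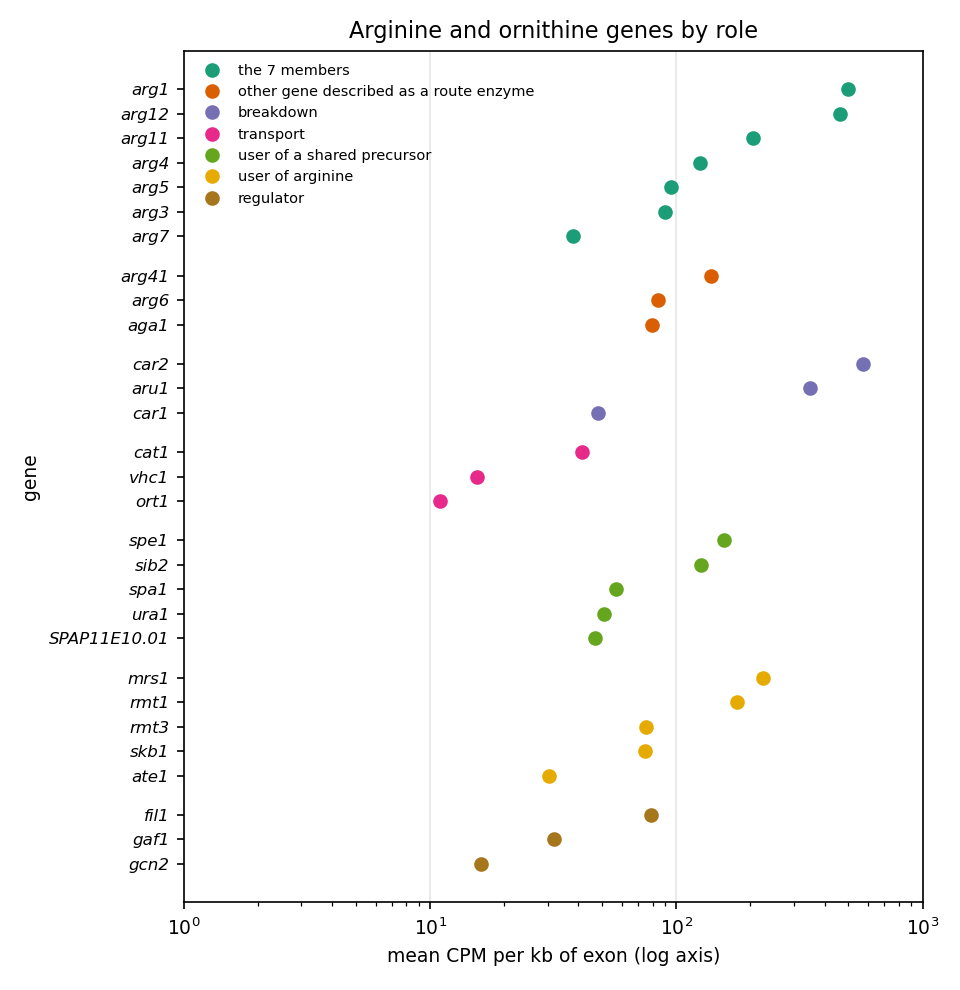
Authors' mean CPM per kb of exon (x axis, log scale) of the 7 members and of other genes tied to arginine or ornithine (y axis), coloured by role. *car2* at 575 and *aru1* at 351 CPM per kb lie beside *arg1* and *arg12*, and the transporter genes lie between 10.9 and 41.5.

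Set beside other amino acid pathways, the arginine genes lay somewhat below the middle. By the median level per kb arginine was 6 of 9 pathways with at least 3 genes, and 7 of 9 with *arg6* and *aga1* added to it. The medians were 440 CPM per kb for leucine, isoleucine and valine, 335 for lysine, 278 for serine and 185 for histidine. They were 165 for glutamate and glutamine, 121 for the aromatic amino acids and tryptophan, 75.5 for proline and 69.7 for methionine and sulfate assimilation. The spread within a pathway varied. The highest gene stood at 13.2 times the lowest for arginine, against 2.55 times for serine, 4.0 for proline, 9.03 for histidine, 9.75 for the aromatic pathway, 19.2 for leucine, isoleucine and valine, 43.8 for methionine and sulfate assimilation, 44.7 for lysine and 49.7 for glutamate and glutamine. In some lists a single low gene set much of the spread. For lysine it was *lys7* at 20.7 CPM per kb, with *lys1* next at 90.9. For glutamate and glutamine it was *gdh2* at 15.6, with *gln1* next at 165, and for arginine *arg7* at 37.9, with *arg3* next at 89.9. The lists follow gene names, and whether each product acts in synthesis was not tested. The 51 genes in the other lists had a median of 154 CPM per kb. Of these genes, 6 lay above *arg1* and 5 below *arg7*. No test was made of these differences, because a mean without replicates gives no error.

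**Figure D4:**
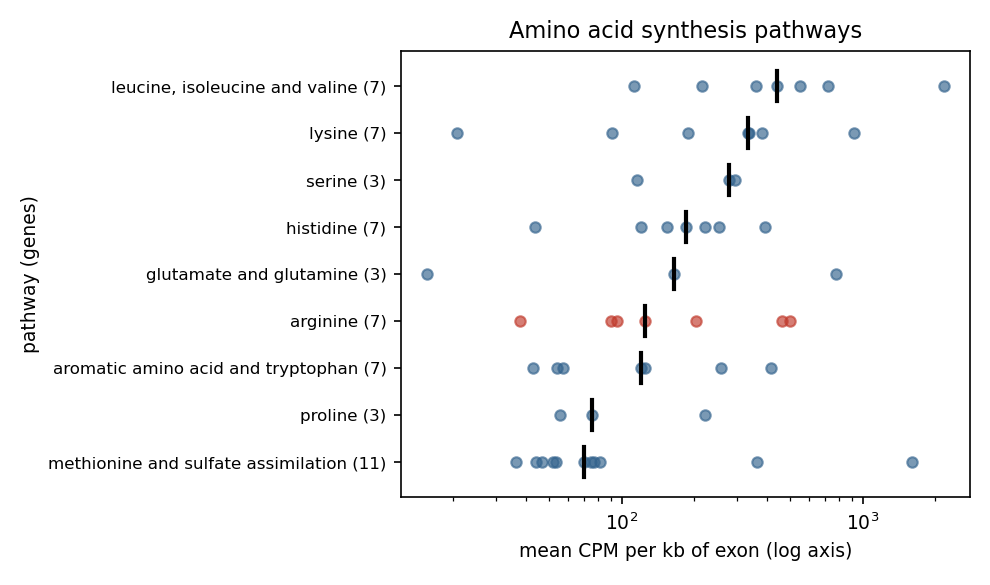
Authors' mean CPM per kb of exon (x axis, log scale) of single genes (points) in each pathway of at least 3 genes (y axis, number of genes in brackets), with the median as a black bar and arginine in red. The arginine median of 125.3 CPM per kb lies between those of glutamate and glutamine (165) and of the aromatic pathway (121).

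In the genome the arginine genes are mostly dispersed. By their identifiers 2 of them are on chromosome I, 4 on chromosome II and 1 on chromosome III. *arg11* and *arg3* are the exception, as they are next to each other among protein-coding genes and are transcribed away from one another. Their levels differed all the same, *arg11* standing at 2.27 times *arg3* per kb of exon and 1.48 times per kb of coding length. The 12 other protein-coding neighbours of the members had a median of 36.5 CPM per kb, near the 40.2 over all protein-coding genes. Of these neighbours 10 had a lower level than the arginine gene beside them. The members other than *arg7* lay above 74.4% to 94.3% of protein-coding genes, so most genes of any position would lie below them. The exceptions were *erg10* next to *arg4*, at 476 CPM per kb, and *cmb1* next to *arg3*, at 169.

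Of the 7 members, 3 are overlapped by another gene of the table, in each case on the opposite strand. SPNCRNA.1658 covers 44.4% of the *arg4* gene and had a mean log2 CPM of 8.08, or 63.1 CPM per kb. That value is over its whole annotated exon length, which also reaches beyond *arg4*. The level of *arg4* was 1.98 times it, which is not a ratio of sense to antisense reads over *arg4* itself. SPNCRNA.1659 covers 55.8% of *arg4* and had 1.32 CPM per kb. SPNCRNA.1360 overlaps 13.7% of *arg12* and had 7.55 CPM per kb, and *cmb1* overlaps 14 bases of *arg3*. The library kit keeps the strand, but whether reads were counted by strand is not given in the sources used here. The level of *arg4* is therefore uncertain, as reads from *arg4* and SPNCRNA.1658 may have been counted for one another or set aside as ambiguous. Over every other member RefSeq annotates opposite-strand RNAs that have no value here. The widest of these cover 82.0% of *arg5*, 73.4% of *arg3*, 59.1% of *arg7*, 58.8% of *arg11*, 13.4% of *arg12* and 7.35% of *arg1*. Whether their reads were counted for these members was not tested, so those levels are uncertain in a like way.

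The coding sequences shared some features that played no part in their choice. Genes of like mRNA level were not compared, so whether these features are particular to the arginine genes was not tested. An intron is annotated in 1 of the 7, *arg1*, and 6 have none, whereas 51.2% of all protein-coding genes have none. The median GC content of the coding sequences was 42.7%, against 39.7% over all protein-coding genes. A codon adaptation index was computed, which is 1 when each codon is the one preferred in the 100 protein-coding genes of highest level per kb. The index was above the protein-coding median of 0.329 in all 7 members, which are not among those 100 genes. It was highest for *arg12* at 0.668, above 96.4% of other genes, and lowest for *arg7* at 0.390, above 78.2%. *arg1*, the member with the highest mRNA level, had 0.489, below *arg4* at 0.561 and *arg5* at 0.553. The order of the index therefore differed from the order of mRNA levels, although *arg7* was lowest in both.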

How the data were processed

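RNA was sequenced from 3 wild-type and 3 *mkt1Δ* cultures. For each library the authors removed adapters (cutadapt 1.8.3), mapped the reads (STAR 2.5, genome ASM294v2.30), took gene counts (HTSeq 0.6.1, mode union), dropped genes with under 20 reads and ran edgeR 3.12.0. The authors deposited 1 table, whose mean log2 CPM per gene over both strains was used here. Its other value columns hold the authors' fold changes and p-values of the strain comparison. Those were not used. The members and lists were chosen with earlier results of these data known.

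Planned tests on single libraries were replaced by a description, because the table holds only a pooled mean. That mean was turned back to CPM and divided by exon length (main) or coding length in kb. Lengths, names, neighbours, overlaps and coding sequences came from the RefSeq annotation of ASM294v3, another build than the authors', so no coordinates are given. It matched 6299 of 6345 genes. Exon lengths in the authors' annotation may differ. Codon weights came from 100 genes, over 5035 intact coding sequences. The genes named are the members, other genes tied to arginine or ornithine by name or description, *fil1*, *gcn2*, *gaf1*, *mkt1*, neighbours, and the 3 coding genes nearest to the members' median. Lists of other pathways hold genes with the pathway's name and a number. Ion channel genes *trp1322* and *trp663*, the carrier gene *leu5* and *met7* (folate) were left out by their descriptions. Percentile and codon functions were tested on simulated data. Python 3.11.15, numpy 2.4.6, pandas 2.3.3 and matplotlib 3.10.9 were used.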

Additional observations from a re-analysis of the deposited data

How the results depend on the processing

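The length that CPM is divided by changed every level, since annotated exons include more than the coding sequence. With coding length the levels were 618 CPM per kb for *arg1*, 597 for *arg12*, 216 for *arg11*, 140.0 for *arg4*, 155 for *arg5*, 146 for *arg3* and 41.1 for *arg7*, their median was 155 and the highest was 15.0 times the lowest. The places of 4 of the 7 genes were kept, and *arg4*, *arg5* and *arg3* changed places. With no division by length all 7 places were kept and the highest was 14.4 times the lowest. With *arg6* and *aga1* added the median was 95.4 CPM per kb, and with SPBC1539.03c added, an alternative chosen after seeing the data, it was 132. Arginine was 6 of 9 pathways by either length and with SPBC1539.03c, but 7 of 9 with *arg6* and *aga1*. The percentile among genes moved most for *arg4* with no division by length, by 11.5 points, and for *arg7* by 11.0 points with coding length and 9.52 points among all genes of the table. Among genes with a mean log2 CPM above 0 it moved by at most 0.851 points. No paired analysis was possible because the table holds a mean over all libraries, with none per replicate. For the same reason alternatives that need values per library (another normalization or tool, filters on counts, pseudocounts and leaving out each replicate) were not run. Depth per library is unknown, so the precision of these means cannot be given, and a gene that differs between the strains is described by a mean of unlike libraries.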
